A study of Homo sapiens with 4 samples.

Results

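The expression of 10 genes of the bone morphogenetic protein (BMP) pathway was examined in RNA-seq libraries of NT2 cells, out of 62696 genes in the deposited count tables. They were chosen by gene symbol, with no rule on their values, though earlier results of these data were known. They are the ligand genes BMP2, BMP4 and BMP7 and the target genes ID1, ID2, ID3 and ID4. The feedback inhibitor genes are SMAD6, SMAD7 and BAMBI. All 10 were found in each of the 4 tables, and all 10 passed the filter on low values, as did 15880 genes in all. NT2, also called NTERA-2, is an established human embryonal carcinoma line. The empty vector group had 1 library, called the control library here, whose genotype is given as wild type, and the other group had 3 libraries labelled HYDIN2 knockdown, replicates 1 to 3. HYDIN2 is annotated as a transcribed unprocessed pseudogene. The labels do not say how the knockdown was made, whether the cells were 1 clone, or whether the 3 replicates were separate cultures, so the spread between them may be technical. All cells were grown in the same serum-containing medium, and the labels name no added BMP.

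None of the 10 genes was 2-fold or more from the control library in all 3 labelled knockdown libraries. BMP2 was higher in 3 of 3, at 3.07, 1.94 and 3.96 times the control level. ID2 and ID3 were lower in 3 of 3, ID2 at 0.487, 0.517 and 0.614 times and ID3 at 0.597, 0.639 and 0.637 times the control level. ID1 was lower and ID4 higher in 3 of 3 by smaller mean log2 differences. Once trends on transcript length and GC content were removed, ID1 turned to slightly higher. ID3 then lay above the control library in replicate 3, at a log2 difference of 0.13, and ID2 kept its sign at -0.77, -0.74 and -0.13. As scaled, the 4 ID genes were not all on the same side of the control library. BMP4 and SMAD6 were more than 2-fold above the control library in replicate 3, and between 0.858 and 1.19 times its level in replicates 1 and 2.

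BMPs are secreted ligands that bind a complex of type I and type II serine/threonine kinase receptors, which phosphorylates SMAD1, SMAD5 and SMAD9. These join SMAD4, enter the nucleus and activate target genes, of which the ID genes are among the most direct. ID proteins are helix-loop-helix proteins without a DNA-binding region: they pair with E proteins such as TCF3 and keep them off DNA. SMAD6, SMAD7 and BAMBI are themselves induced by the pathway and dampen it. In human pluripotent cells, added BMP favours differentiation, including towards trophoblast-like cells.

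The sequences just upstream of RefSeq transcription starts of target and feedback genes are shown first, since SMAD proteins are known to act at such promoters. RefSeq promoter windows (GRCh38.p14) were matched by symbol for 8 of the 10 genes, with 12 windows in all. BMP2 and BMP7 had no entry. Each sequence below holds the 250 bases before the annotated transcription start, written 5′ to 3′ on the gene's own strand. Capitals mark matches to the GC-rich SMAD motif GGCGCC, the SMAD palindrome GTCTAGAC or the TATA motif TATAAA, searched on both strands. The windows are chr20:31605039-31605288 on the plus strand for ID1, chr2:8681806-8682055 on the plus strand for ID2, chr1:23559502-23559751 on the minus strand for ID3 and chr6:19837120-19837369 on the plus strand for ID4. Those of the feedback inhibitors are chr15:66701986-66702235 for SMAD6 and chr10:28677271-28677520 for BAMBI, both on the plus strand. RefSeq starts differ from the GENCODE gene starts used below. The ID2 and ID3 windows lie inside the GENCODE genes, the BAMBI window mostly does, and those of ID1 and SMAD6 reach in by a few bases.
ID1: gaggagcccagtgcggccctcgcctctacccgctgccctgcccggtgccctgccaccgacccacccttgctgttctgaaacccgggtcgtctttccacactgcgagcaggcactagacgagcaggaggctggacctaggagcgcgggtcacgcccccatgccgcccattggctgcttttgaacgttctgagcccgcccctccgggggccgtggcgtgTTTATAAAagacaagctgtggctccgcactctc
ID2: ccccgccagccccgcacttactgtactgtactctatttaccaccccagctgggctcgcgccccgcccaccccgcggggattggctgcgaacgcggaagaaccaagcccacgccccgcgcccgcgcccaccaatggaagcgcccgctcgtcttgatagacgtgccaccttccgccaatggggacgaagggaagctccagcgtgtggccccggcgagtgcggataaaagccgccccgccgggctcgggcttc
ID3: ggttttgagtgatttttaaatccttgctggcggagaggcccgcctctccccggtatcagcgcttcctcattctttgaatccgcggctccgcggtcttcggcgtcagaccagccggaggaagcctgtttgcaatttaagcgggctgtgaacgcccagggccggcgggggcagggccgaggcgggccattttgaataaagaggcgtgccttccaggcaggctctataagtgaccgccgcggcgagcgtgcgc
ID4: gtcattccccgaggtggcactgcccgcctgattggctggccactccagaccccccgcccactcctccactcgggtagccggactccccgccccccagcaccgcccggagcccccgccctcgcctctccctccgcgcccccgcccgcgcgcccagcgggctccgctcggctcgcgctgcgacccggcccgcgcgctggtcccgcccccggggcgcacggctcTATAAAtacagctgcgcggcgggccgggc
SMAD6: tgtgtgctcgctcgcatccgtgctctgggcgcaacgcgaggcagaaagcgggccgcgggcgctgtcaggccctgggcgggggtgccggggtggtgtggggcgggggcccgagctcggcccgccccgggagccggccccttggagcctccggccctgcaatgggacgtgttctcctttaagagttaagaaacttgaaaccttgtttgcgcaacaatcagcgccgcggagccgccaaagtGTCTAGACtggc
BAMBI: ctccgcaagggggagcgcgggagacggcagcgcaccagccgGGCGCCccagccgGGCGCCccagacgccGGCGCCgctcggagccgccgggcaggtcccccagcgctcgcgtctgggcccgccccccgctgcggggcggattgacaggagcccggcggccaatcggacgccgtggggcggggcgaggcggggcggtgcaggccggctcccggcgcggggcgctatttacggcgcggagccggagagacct

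The ID1 window held TATAAA 31 bases before the start. The capitals there run over an overlapping match on the other strand at 33 bases. ID4 held TATAAA 29 bases before its start, and 1 of the SMAD7 windows, not printed, held it at 35 bases. Among 35116 RefSeq windows of the same length, 10.7% contained this motif. SMAD6 held the palindrome GTCTAGAC 12 bases before its start, a motif present in 0.182% of the windows. BAMBI held GGCGCC at 209, 196 and 181 bases before the start, and 1 BMP4 window held it at 232 bases, against 16.4% of all windows. No match was found in the ID2 and ID3 windows, which says only that these letters are not in those bases. The matches describe the sequence, not SMAD binding, which was not measured.

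The libraries set limits on every comparison. Totals were 25181737 counts in the control library against 62904698, 61627449 and 28552070 in replicates 1, 2 and 3 of the labelled knockdown. By its counts, the targeted gene went against the labels in replicates 1 and 2. It is annotated as a pseudogene, and how reads matching several places were counted is not given, so its counts are uncertain. HYDIN2 had 12 counts in the control library and 150, 112 and 11 in replicates 1, 2 and 3. Its ratios to the control library were 4.82 (95% counting interval 2.11 to 13.5), 3.75 (1.62 to 10.7) and 0.704 (0.18 to 2.697), so no library labelled knockdown had less HYDIN2 than the control library beyond counting error. The headers of the count columns name LacZ and GKAP_KIF27 in place of the vector and HYDIN2. Replicate 3 stood apart from replicates 1 and 2. Over the 15880 genes tested, it was 2-fold or more above both in 6.20% and below both in 13.1%. The embryonal carcinoma markers POU5F1, NANOG, SOX2 and LIN28A were detected in all 4 libraries at 19.4 CPM (counts scaled to a common library total) or more, while ZFP42 was at or below 0.167 CPM. Each library's value is therefore given on its own, and a direction is that of a library labelled knockdown.

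**Figure D1:**
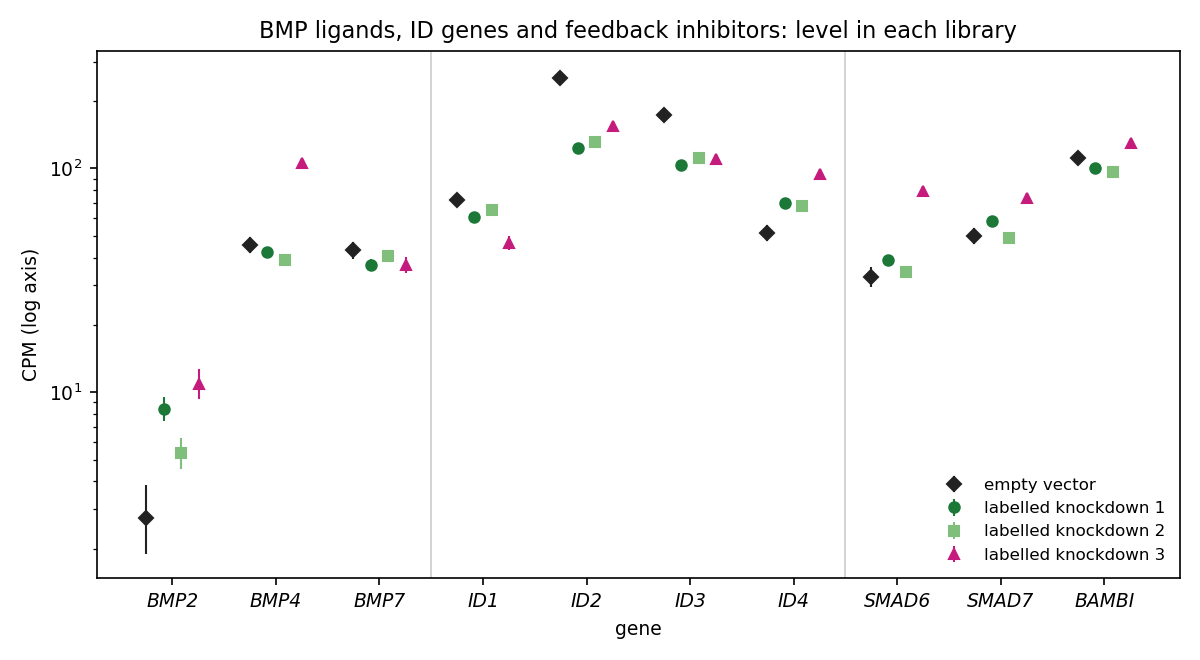
Level of each of the 10 genes (x axis) in CPM on a log axis (y axis) in the control library and the 3 labelled knockdown libraries, with 95% Poisson counting intervals as bars. BMP2 in the labelled knockdown libraries sits above the control library (empty vector), ID2 and ID3 sit below it, and replicate 3 is apart for BMP4 and SMAD6.

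Of the ligand genes, BMP2 showed the clearest difference. BMP2 (ENSG00000125845.7, chr20:6767664-6780280 of GRCh38, plus strand, 3 exons) encodes a ligand that drives bone formation and mesoderm patterning. It had 66 counts in the control library and 525, 318 and 340 in replicates 1, 2 and 3. In CPM these were 2.75 (95% counting interval 1.89 to 3.86) against 8.43, 5.33 and 10.9. The lowest labelled knockdown library thus lay above the control interval, and the groups did not overlap. Against a single control library, the same held for BMP7, ID1, ID2, ID3, ID4 and SMAD6, and its share over all genes is not given here. The ratios were 3.07 (2.13 to 4.55), 1.94 (1.33 to 2.91) and 3.96 (2.71 to 5.94), with a mean log2 difference of 1.504 ± 0.52 (SD, n = 3). Replicate 2 alone kept BMP2 under the 2-fold rule. Of all genes tested, 2.73% had a mean difference at least as far above. These intervals compare libraries, not conditions, and in bulk RNA a change in the number of expressing cells and in RNA per cell cannot be told apart.

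BMP4, a ligand of early mesoderm and germ cell induction, did not differ from the control library as a group. BMP4 (ENSG00000125378.16, chr14:53949736-53958761, minus strand) was at 45.5 CPM in the control library and at 42.5, 39.1 and 106 CPM in replicates 1, 2 and 3. The groups overlapped as scaled, since replicates 1 and 2 were below the control library and replicate 3 was above it. The ratio of replicate 3 to the control library was 2.33 (2.12 to 2.57), while those of replicates 1 and 2 were 0.933 (0.844 to 1.03) and 0.858 (0.775 to 0.952). Its mean log2 difference was 0.30 ± 0.80 (SD, n = 3), smaller than its spread, and -0.20 without replicate 3.

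BMP7, a ligand known for its part in kidney and eye development, varied least among the ligands. BMP7 (ENSG00000101144.13, chr20:57168748-57266629, minus strand) was at 43.0 CPM in the control library, against 37.2, 40.7 and 36.9 CPM in the labelled knockdown libraries. All 3 were lower, but the interval of the ratio for replicate 2, 0.852 to 1.05, included 1. Its mean log2 difference was -0.17 ± 0.08 (SD, n = 3). An antisense gene, BMP7-AS1, shares no exonic base with it and had at most 1 count in a library.

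Among the target genes, ID2 was lower in every labelled knockdown library. ID2 (ENSG00000115738.10, chr2:8678845-8684453, plus strand) encodes an inhibitor of E proteins known from neural and lymphoid precursors. Its level was 253 CPM in the control library and 123, 131 and 156 CPM in replicates 1, 2 and 3. The highest labelled knockdown library stood at 0.614 times the control level (0.582 to 0.647). The ratios of replicates 1 and 2 were 0.487 (0.464 to 0.510) and 0.517 (0.493 to 0.542), for a mean log2 difference of -0.90 ± 0.17 (SD, n = 3). Of all genes tested, 8.96% lay at least as far below. The antisense gene ID2-AS1 overlaps 38 exonic bases of ID2 and was at 65.2, 86.7, 82.3 and 60.0 CPM in the control library and replicates 1, 2 and 3. The library kit marks strand, but the strand setting of the counting is not given in the sources used here, so reads over those shared bases cannot be assigned with certainty.

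As scaled, ID3 was also lower in all 3, with the smallest spread of the 10 genes. With length and GC trends removed, replicate 3 lay above the control library, at a log2 difference of 0.13. ID3 (ENSG00000117318.9, chr1:23557918-23559794, minus strand) encodes an inhibitor known from lymphocyte and vascular development. Its level was 174 CPM in the control library, against 104, 111 and 111 CPM in the labelled knockdown libraries. The ratios were 0.597 (0.565 to 0.631), 0.639 (0.605 to 0.676) and 0.637 (0.597 to 0.679), and the mean log2 difference was -0.68 ± 0.06 (SD, n = 3). By mean difference, 15.5% of all genes tested lay at least as far below.

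ID1, which often serves as the readout of BMP signalling in cultured cells, differed less. ID1 (ENSG00000125968.9, chr20:31605283-31606515, plus strand) was at 72.2 CPM in the control library and at 61.0, 65.6 and 46.5 CPM in replicates 1, 2 and 3. All 3 lay below the control library, replicate 3 the furthest, but all 3 lay above it, at log2 differences of 0.15 to 0.17, with length and GC trends removed. The ratios were 0.845 (0.779 to 0.916), 0.908 (0.838 to 0.985) and 0.644 (0.583 to 0.711), with a mean log2 difference of -0.34 ± 0.26 (SD, n = 3). Of all genes tested, 31.9% lay at least as far below.

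ID4 went the other way. ID4 (ENSG00000172201.12, chr6:19837386-19840684, plus strand) encodes the family member best known from neural precursors and spermatogonia. It was at 51.4 CPM in the control library and at 69.9, 68.1 and 94.9 CPM in replicates 1, 2 and 3. Replicate 3 was the highest. The ratios were 1.36 (1.24 to 1.49), 1.33 (1.21 to 1.45) and 1.85 (1.68 to 2.03), with a mean log2 difference of 0.58 ± 0.27 (SD, n = 3). Of all genes tested, 19.8% lay at least as far above.

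**Figure D2:**
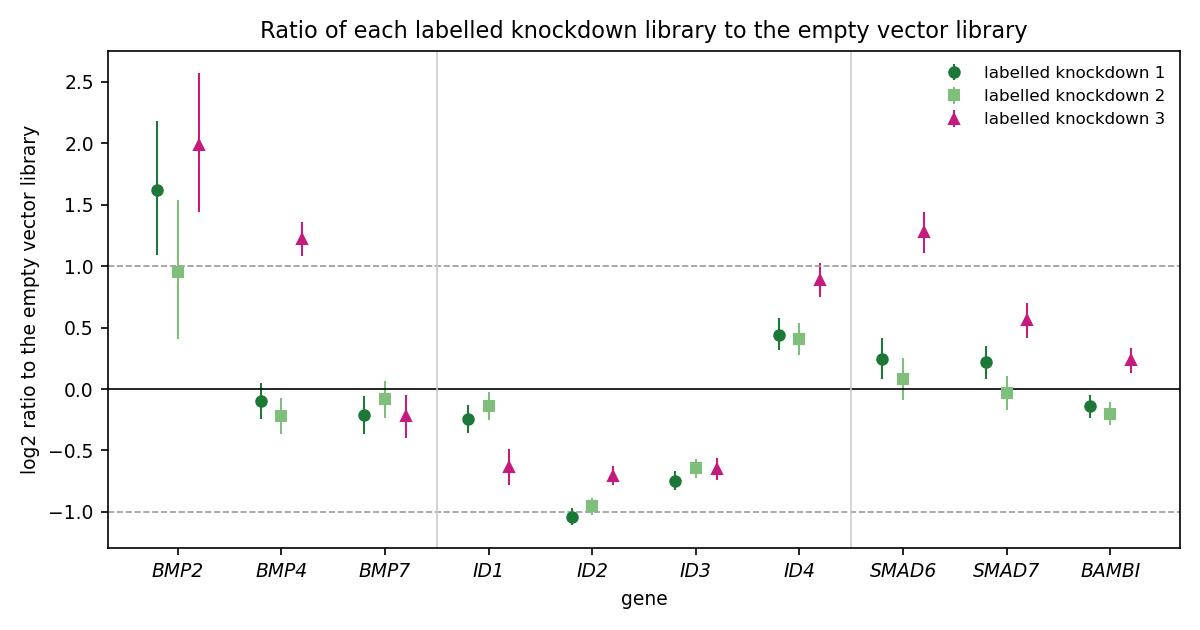
Log2 ratio of each labelled knockdown library to the control library (y axis) for each of the 10 genes (x axis), with exact 95% counting intervals as bars and dashed lines at 2-fold. No gene has all 3 points beyond 1 dashed line. BMP2 and ID4 are above 0 in all 3 libraries, and ID1, ID2 and ID3 are below 0 in all 3.

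Per kilobase of exon, the makeup of the ID family differed between the libraries. The summed level of the 4 ID genes was 291.9 CPM per kb in the control library and 192.8, 203.3 and 210.2 CPM per kb in replicates 1, 2 and 3. ID2 had the highest share in the control library, 39.4%, against 29%, 29.2% and 33.5%. The share of ID4 was 7.51% in the control library and 15.5%, 14.3% and 19.3% in the labelled knockdown libraries. ID3 held 33.1% against 29.9%, 30.4% and 29.3%. The share of ID1, 20.1% in the control library, was below that in replicates 1 and 2 (25.7% and 26.2%) and above that in replicate 3 (17.9%).

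**Figure D3:**
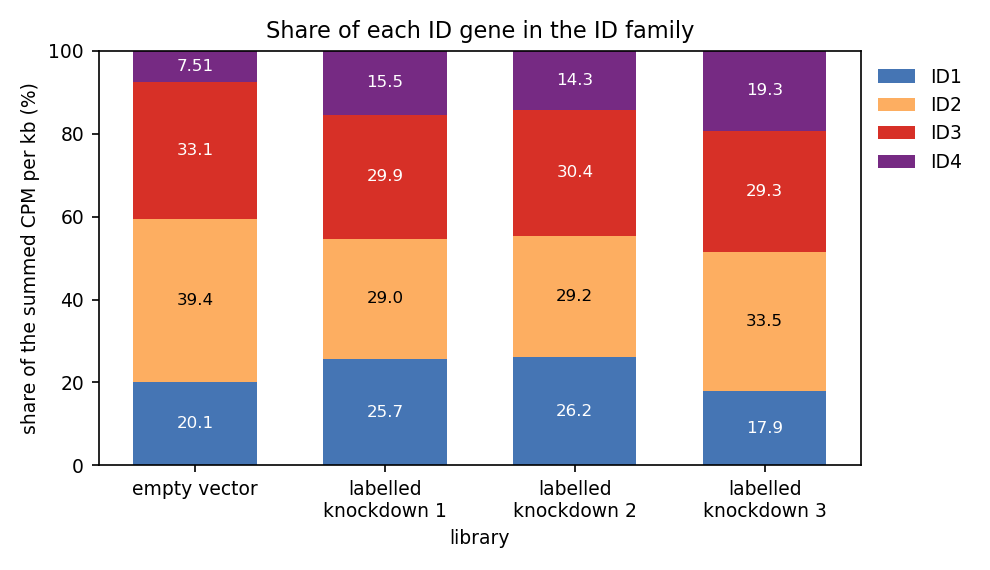
Share of each ID gene (coloured segments, labelled in percent) in the summed CPM per kb of the 4 ID genes (y axis) in each library (x axis). The ID4 segment is 7.51% of the control bar and between 14.3% and 19.3% of the labelled knockdown bars.

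Among the feedback inhibitors, SMAD6 had its high value in replicate 3. SMAD6 (ENSG00000137834.15, chr15:66702228-66782848, plus strand) encodes an inhibitory SMAD that preferentially blocks BMP receptors. It was at 32.8 CPM in the control library and at 38.8, 34.6 and 79.4 CPM in replicates 1, 2 and 3. The ratios were 1.19 (1.06 to 1.33), 1.06 (0.939 to 1.19) and 2.42 (2.16 to 2.72), so replicate 2 did not differ beyond counting error. Its mean log2 difference was 0.53 ± 0.65 (SD, n = 3), smaller than its spread, and 0.12 without replicate 3.

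SMAD7, an inhibitory SMAD of both the BMP and the TGF-beta branches, overlapped between the groups. SMAD7 (ENSG00000101665.10, chr18:48919853-48952052, minus strand) was at 50.0 CPM in the control library, against 58.1, 48.9 and 73.6 CPM in the labelled knockdown libraries. Replicate 2 was below the control library and the others above. Its mean log2 difference was 0.25 ± 0.30 (SD, n = 3), and 0.05 without replicate 3.

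BAMBI encodes a receptor-like membrane protein that lacks the kinase domain and acts as a decoy. BAMBI (ENSG00000095739.11, chr10:28677342-28682939, plus strand) was at 111 CPM in the control library and at 101, 96.4 and 130 CPM in replicates 1, 2 and 3. The groups overlapped as scaled, with replicate 3 above the control library and the other replicates below it. The mean log2 difference was -0.04 ± 0.24 (SD, n = 3). That sign is not stable: the mean was 0.0552 when libraries were scaled by total counts and 0.33 with the trends removed.

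Counted over the 10 genes, the differences were close to what the whole table showed. At least 2-fold higher in every labelled knockdown library were 0 of 10 genes, against 3.65% of the 15880 genes tested (580), and at least 2-fold lower were 0 of 10, against 2.72% (432). Scaling by total counts moved that split over all genes to 734 higher and 312 lower. At a 1.5-fold rule, 1 of 10 was higher (BMP2), against 10.0% of all genes, and 2 of 10 were lower (ID2 and ID3), against 9.61%. Counting intervals lay wholly above 1 in all 3 libraries for BMP2 and ID4, against 17.7% of all genes, and wholly below 1 for ID1, ID2 and ID3, against 22.2%. The median of the mean log2 differences was 0.11 over the 10 genes and -0.02 over all genes tested. Over the 10 genes it was -0.19 without replicate 3 and 0.30 with length and GC trends removed, so it has no stable sign. With 10 genes, these shares are near the background.

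edgeR's quasi-likelihood test, whose spread comes from the 3 labelled knockdown libraries alone, called 0 of the 10 genes and 0.00% of 26029 genes at an adjusted p under 0.05. At an unadjusted p under 0.05, it passed 3023 genes (11.6%), among them BMP2, ID2 and ID3. DESeq2's Wald test called 388 of 15431 genes (2.51%) and none of the 10. Without replicate 3, edgeR called 11177 of 25016 genes (44.7%), among them BAMBI, BMP2, ID1, ID2, ID3 and ID4. The control library is single in each of these fits and is assumed to vary like the labelled knockdown libraries.

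Within the labelled knockdown group, 2 of the 10 genes, BMP4 and SMAD6, were 2-fold or more higher in replicate 3 than in both other replicates, against 6.20% of all genes tested. BMP4 was 2.498 times as high in replicate 3 as in replicate 1 (2.32 to 2.69) and 2.72 times as high as in replicate 2 (2.52 to 2.93). SMAD6 was 2.04 times (1.89 to 2.22) and 2.29 times (2.11 to 2.49) as high. None of the 10 was 2-fold or more lower in replicate 3, against 13.1% of all genes. Replicates 1 and 2 were closer to each other than to replicate 3, except in BMP2, BMP7 and ID3. Replicate 3 was closer to replicate 1 for BMP2 (ratio 1.29) and BMP7 (0.993), and to replicate 2 for ID3 (0.996). Ratios of replicate 2 to replicate 1 ran from 0.632 for BMP2 to 1.09 for BMP7. For ID4 and BAMBI, the interval of that ratio included 1.

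Compared per kilobase of exon, the 10 genes fell in a similar order in both groups. ID2 and ID3 were highest in the control library, at 115 and 96.6 CPM per kb. Their labelled knockdown ranges, 55.9 to 70.5 and 57.6 to 61.7 CPM per kb, overlapped each other. ID1 and BAMBI followed, with 58.6 and 47.9 CPM per kb in the control library and overlapping ranges of 37.7 to 53.2 and 41.7 to 56.3 CPM per kb. ID4 came next at 21.9 CPM per kb, with a range of 29.1 to 40.5 that reached that of ID1. BMP4, at 14.8 CPM per kb, had a range of 12.7 to 34.4 that overlapped both ID4 above it and SMAD7 below it. SMAD7 (9.92 CPM per kb in the control library), BMP7 (7.94) and SMAD6 (3.83) were lower, and the ranges of BMP7 and SMAD6 overlapped. BMP2 was the lowest in every library, at 0.764 CPM per kb in the control library and 1.48 to 3.02 in the others.

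Transcript length moved with the differences over all genes, and the 10 genes differ in length. Across 15485 genes with an annotated length, which are not independent replicates, Spearman's rho of length with the log2 difference was 0.347, 0.298 and 0.460 in replicates 1, 2 and 3. Genes with a longest transcript of at most 1947 nt had median log2 differences of -0.32, -0.23 and -0.80, and those of at least 5859 nt had medians of 0.47, 0.42 and 0.50. The longest transcripts of ID1 and ID3, 1233 and 1251 nt, fall in the short class, and ID2 (2041 nt) lies just above it. BMP4 (1917 nt) and BAMBI (1884 nt) are also short, while ID4 has 2344 nt, BMP2 3601 nt, BMP7 4013 nt, SMAD7 4428 nt and SMAD6 5198 nt.

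After smooth trends on length and GC content were removed, ID1 changed sign, to log2 differences of 0.15, 0.17 and 0.15 in replicates 1, 2 and 3. ID3 was at -0.36, -0.34 and 0.13, so its groups then overlapped. ID2 kept its sign at -0.77, -0.74 and -0.13. ID4 was at 0.61, 0.53 and 1.31, and BMP2 at 1.62, 0.97 and 2.12, both above 0 in all 3 libraries with and without the trends. BMP4 moved to 0.20, 0.02 and 1.84 and BAMBI to 0.14, 0.02 and 0.84, so replicates 1 and 2 changed sign in both genes and no library lay below the control. The values of replicate 2 for these genes were close to 0.

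**Figure D4:**
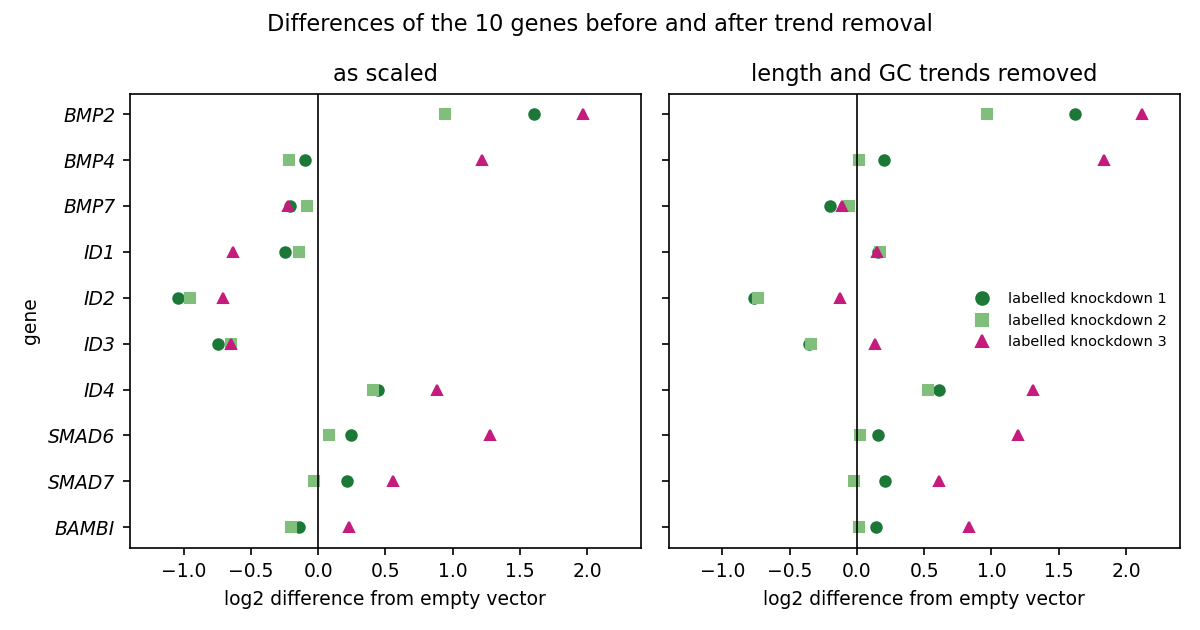
Log2 difference from the control library (x axes) of the 10 genes (y axis) in the 3 labelled knockdown libraries, as scaled (left) and after smooth length and GC trends were removed (right). The 3 points of ID1 move from below 0 to between 0.15 and 0.17, while those of BMP2 and ID4 are above 0 on both sides.

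Other genes of the pathway were read by the same 2-fold rule, again against 3.65% of all genes higher and 2.72% lower. Those shares over all genes were 9.06% (1425) and 5.97% (939) without replicate 3. With the length and GC trends removed they were 2.96% (458) and 1.45% (224). Of the 12 other BMP-type ligands, 7 passed the filter on low values, and BMP10, a ligand of the heart, rose. Its level was 0.667 CPM in the control library and 1.77, 1.71 and 5.19 CPM in replicates 1, 2 and 3. GDF3, a ligand of the same superfamily expressed in pluripotent cells, was the most abundant of the list in CPM, at 653 against 151, 163 and 346 CPM. Replicate 3 kept GDF3, BMP6 and BMP8B from passing as lower: without it, these 3 of 7 fell, against 5.97% of all genes. GDF3 was singled out after its values were seen.

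Of 11 receptor and co-receptor genes tested, BMPR1B and BMPR2 rose and 0 fell, with a median of the mean log2 differences of 0.61. BMPR2, the type II receptor dedicated to BMPs, was at 60.9 CPM in the control library and at 137, 128 and 167 CPM in replicates 1, 2 and 3. BMPR1B, a type I receptor, was at 3.75 against 12.6, 10.97 and 9.64 CPM. With the length and GC trends removed, only BMPR1B passed. BMPR1A, the type I receptor with the highest level per kb, was at 213 CPM against 248, 243 and 216 CPM. It has annotated processed pseudogenes, so its counts are uncertain.

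None of the 4 signal transducers passed the rule. SMAD5, the highest per kb, was at 113.5 CPM against 122, 118 and 139 CPM. SMAD9 was at 8.37 CPM against 23.3, 25.04 and 15.1 CPM and passed only without replicate 3 or with total-count scaling. The median of the list, 0.29, was -0.06 with the trends removed.

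Of 12 secreted antagonists and modulators tested, 1 rose and 0 fell, with a median of 0.49 that was 0.20 with the trends removed. NOG, which encodes noggin and binds BMPs outside the cell, was at 8.92 CPM in the control library and at 35.4, 33.1 and 24.4 CPM in replicates 1, 2 and 3. Without replicate 3, 3 genes of the list rose, as CER1 and VWC2 then passed beside NOG, against 9.06% of all genes. Of the 9 intracellular inhibitors and turnover genes, 0 rose and 0 fell, with a median of -0.11 that was -0.32 without replicate 3, -0.21 with the trends removed and -0.02 with total-count scaling.

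Of the 3 E protein genes, 0 passed, with a median of 0.48 that was 0.19 with the trends removed. TCF3, the highest per kb, was at 268 CPM against 249, 239 and 282 CPM, and its groups overlapped. TCF4 was at 51.1 CPM against 94.7, 91.9 and 103 CPM. TCF12 was at 152 CPM against 239, 237 and 169 CPM. For TCF4 and TCF12 the counting intervals lay above 1 in all 3 libraries, as for 17.7% of all genes.

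Transcription factor genes known to respond to BMP passed the rule most often among these lists. Of 12 tested, 4 rose and 0 fell, with a median of the mean log2 differences of 1.25. HAND1, a factor of trophoblast and heart, was at 8.17 CPM in the control library and at 33.7, 31.4 and 71.2 CPM in replicates 1, 2 and 3. TBX3, a T-box factor of limb and extraembryonic tissue, was at 10.3 against 33.8, 30.1 and 84.4 CPM. RUNX2, the bone lineage factor, was at 4.04 against 21.3, 19.8 and 12.1 CPM. GATA2, a blood and trophoblast factor, was at 9.66 against 21.2, 19.5 and 27.0 CPM. HAND1, TBX3 and RUNX2 passed in each alternative run for the lists (other scalings, a library left out, trend removal). GATA2 did not pass with DESeq2 size factors, with upper quartile scaling or without replicate 1 or 3. With the length and GC trends removed, 7 of the 12 passed, against 2.96% of all genes. By the same rule, 0 of the 4 ID genes passed. The list was chosen with earlier results of these data known, and its counts under alternatives were added after seeing the data. These shares therefore describe the listed genes only and are no independent support.

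**Figure D5:**
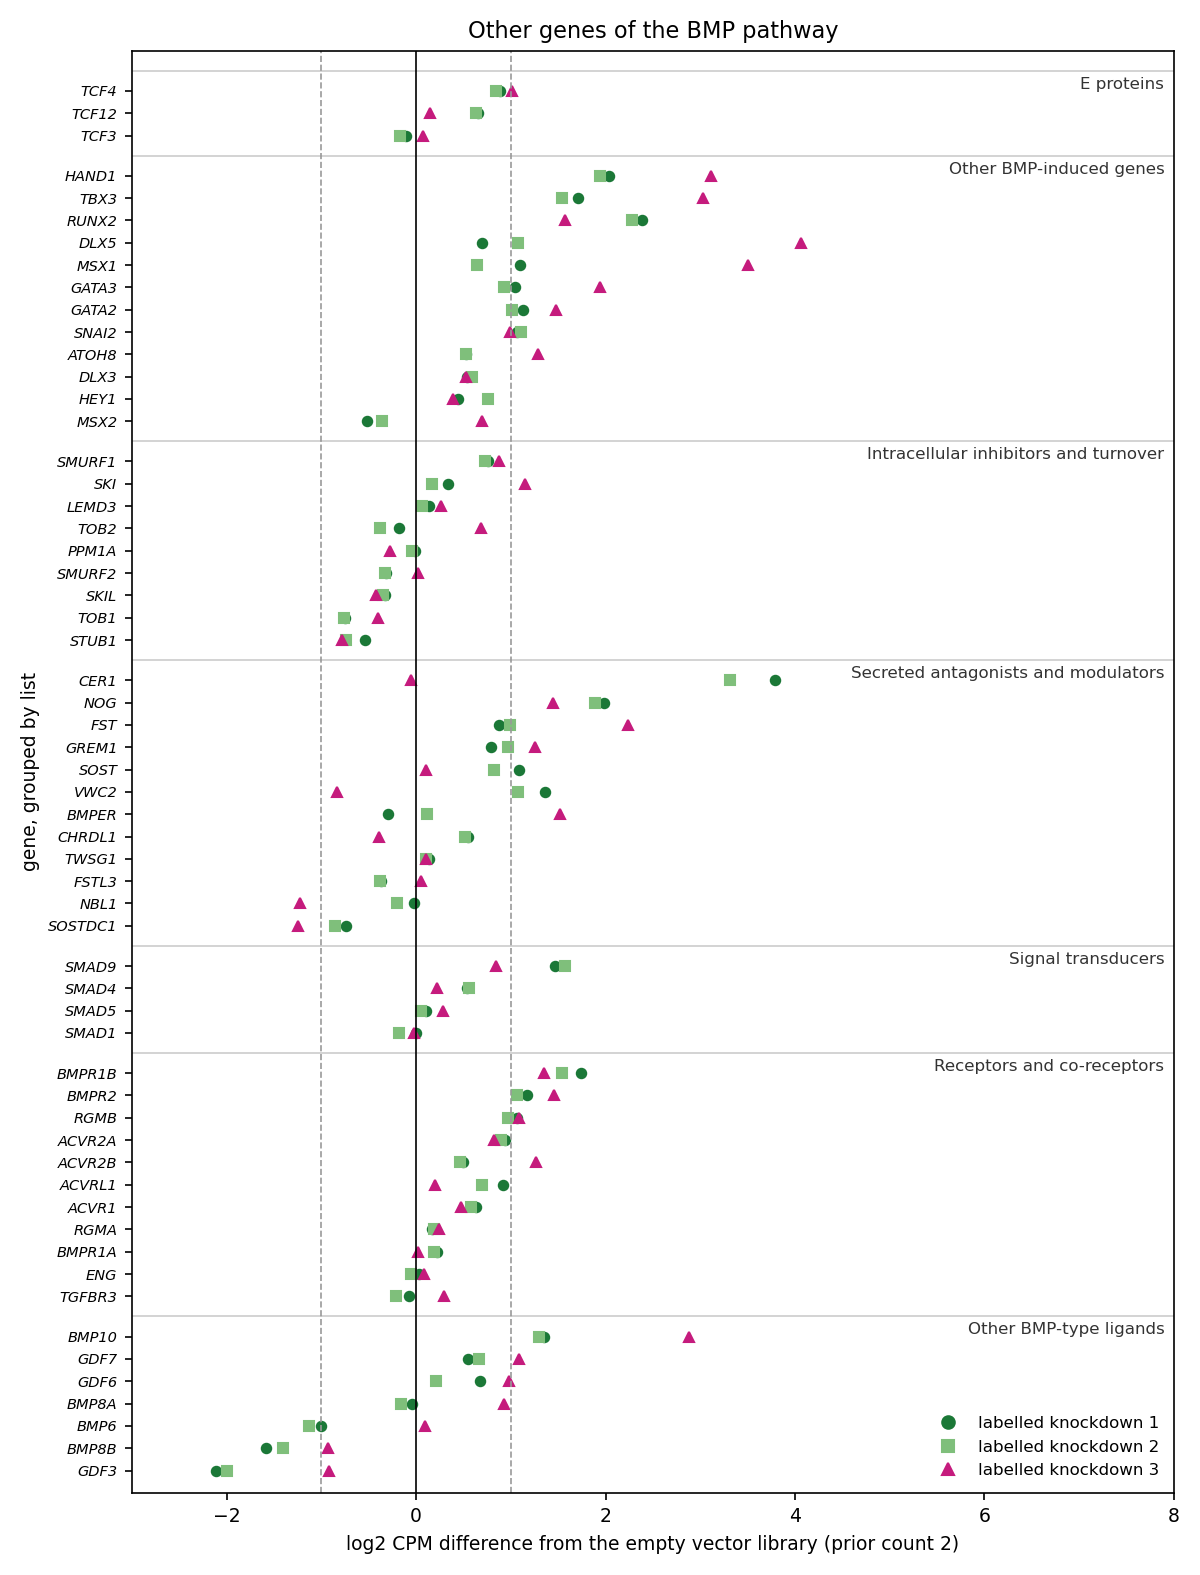
Log2 CPM difference from the control library (x axis) of the other pathway genes tested, grouped by list (y axis), in the 3 labelled knockdown libraries, with dashed lines at 2-fold. HAND1, TBX3, RUNX2, GATA2, NOG, BMPR1B, BMPR2 and BMP10 have all 3 points to the right of the 2-fold line.

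Markers of other cell types also differed between these libraries, and not all in the same direction. Summed over 7 trophoblast markers, the level was 38.5 CPM in the control library and 98.4, 92.6 and 217.2 CPM in replicates 1, 2 and 3. The list shares HAND1 and GATA3 with the BMP-induced list, while CGB5 was at 0 in all 4 libraries and CGA and ELF5 were at or below 0.0838 CPM. Of the 4 tested, HAND1 and TFAP2A rose. KRT7 did not follow the sum: it was at 7.165 CPM against 11.4, 12.3 and 4.45 CPM, lowest in replicate 3. Summed neural markers were at 190.9 CPM against 365, 342.9 and 322 CPM, with PAX6 and MAP2 of 7 tested rising. PAX6 had 0 counts in the control library and NEUROG2 was at or below 0.134 CPM. Mesoderm and endoderm markers summed to 8.54 CPM against 14.1, 11.3 and 36.7 CPM, with 0 of 4 passing and FOXA2 at or near 0. Fibroblast markers summed to 504.1 CPM against 644.5, 633.8 and 420.4 CPM, with PDGFRB of 6 tested rising and DCN at or near 0. THY1 was the largest part of that sum in each library, and THY1 and LUM were lower than the control library in replicate 3 only. COL3A1 went the other way from PDGFRB in replicates 1 and 2, at 4.04 CPM against 0.739, 0.57 and 6.21 CPM. Without replicate 3, COL3A1 passed as lower and COL1A2 as higher. With the length and GC trends removed, MAP2 and PDGFRB no longer passed, while STMN2 (neural) and GATA3 (trophoblast) did. Embryonal carcinoma markers summed to 8031 CPM against 9207, 9327 and 7653 CPM, with 0 of 9 passing. LIN28A and PODXL made up most of that sum. POU5F1, TDGF1, DPPA4 and L1TD1 were lower in all 3, and the intervals of TDGF1, DPPA4 and L1TD1 lay below 1 in each. L1TD1, at 472 CPM against 241, 239 and 227 CPM, passed as lower with DESeq2 size factors and without replicate 1 or 3. The part of these markers in the levels of the 10 genes was not tested.

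By likeness of profile over the 4 libraries, ID1 did not sit beside the other ID genes. Likeness was the root mean square distance between log2 CPM profiles, each centred on its own mean, among 11752 genes with a mean CPM of at least 5. Among the 5 genes nearest to ID1 were ARMC10 (0.011), NARS2 (0.014), PTPN18 (0.014) and CREM (0.016). ID3 ranked 3565 (0.248), ID2 ranked 6585 (0.386) and ID4 ranked 9126 (0.544). ID2 and ID3 were closer to each other, 0.138 apart, and ID3 ranked 405 among the genes nearest to ID2. SMAD7 was the nearest of the other 9 genes to ID4, at 0.161 and rank 806. With 4 libraries, many genes share a profile, and nearness is a description only.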

How the data were processed

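For each library, the authors deposited a table of raw counts. The submitters' processing notes name STAR 2.7.11b, featureCounts 2.0.6, DESeq2 and the build GRCh38 (hg38). Their settings and the annotation release are not given in the sources used here. Per the labels' protocols, ribosomal RNA was depleted and libraries were strand-specific. Even values made up 65.2% to 68.0% of nonzero counts, as counting both mates of a pair would give, so 95% intervals (exact Poisson for levels, Clopper-Pearson for ratios) used counts divided by 2 and cover counting error only. CPM used TMM factors (0.953 for the empty vector library, then 0.990, 0.969 and 1.094) from edgeR 4.0.16 in R 4.3.3, and log2 CPM a prior count of 2. Annotation came from GENCODE 29, in which 58269 of 62696 identifiers were matched.

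With 1 empty vector library, no p-value per gene is given. A gene passed ("rose" or "fell") when its log2 CPM differed by at least 1, and with the same sign, between each labelled knockdown library and the control, among genes whose 2 group mean CPMs averaged at least 1. edgeR's quasi-likelihood test and the Wald test of DESeq2 1.42.0, both adjusted by Benjamini-Hochberg at 0.05, are given as numbers of calls. Alternatives were other scalings, prior counts, filters and fold rules, voom in limma 3.58.1, no filter on low counts, leaving out each labelled knockdown library, and removal of length and GC trends (lowess, span 0.3). List counts were run only for the other scalings, the left-out libraries and trend removal, and were added after seeing the data. The rule and edgeR's test were tried on simulated data whose control library was drawn with the means and spread of the labelled knockdown libraries. Those data held no length trend, so they do not show how the rule behaves with the trend seen here. The members and lists were chosen with earlier results of these data known. Named were HYDIN2, the 10 members, pathway genes that passed (at most 4 a list), the highest receptor, SMAD and E protein gene per kb, and the 5 genes nearest to ID1 in profile. PAX6, MAP2, TFAP2A and PDGFRB are the markers that passed, and the other markers, GDF3, BMP6, BMP8B, SMAD9, CER1, VWC2, TCF4 and TCF12 were named after their values were seen. Results for 1 gene of the antagonist list and 1 of those nearest to ID1 are not reported here.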

Additional observations from a re-analysis of the deposited data

How the results depend on the processing

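With 1 empty vector library, no setting gives a replicate check on the control side. Of 90 values of the 10 genes' mean log2 differences under alternatives, 81 stayed within 1 SD of the reported value with the same sign, 4 moved further and 5 changed sign. Those 5 were BMP4 without replicate 3 (-0.20; 0.48 and 0.55 without replicates 1 and 2), ID1 with trend removal (0.16), and BAMBI with total counts (0.0552), trend removal (0.33) or without replicate 2 (0.0366; -0.21 without replicate 3). The cause was not tested.

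The 1012 genes past the 2-fold rule became 2640 at a mean CPM of 0.1, 631 at a mean CPM of 5, 3116 at 1.5-fold, 2430 with 2-fold in the mean, and 1095 to 2364 when 1 labelled knockdown library was left out. Of the 10 genes, 0 passed, 3 at 1.5-fold, 1 with 2-fold in the mean, and 0 to 1 with a library left out (BMP2 without replicate 2). edgeR's 0 calls became 388 with DESeq2 and 17 to 11177 with a library left out, the most without replicate 3. They remained 0 with RLE size factors, without the filter on low counts and with voom. Of the 10 genes, 2 were 2-fold apart in replicate 3 under each alternative run for that count. No paired analysis was possible because a single control library, without a number, cannot be matched to replicates.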
